A study of Mus musculus with 4 samples.

Results

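The 7 genes described here carry GABA, the main inhibitory transmitter of the forebrain, through its life cycle: Gad1 and Gad2 make it, Slc32a1 loads it into synaptic vesicles, Slc6a11 and Slc6a13 take it up, and Abat and Aldh5a1 break it down. They were selected by symbol, as 7 of the 23991 symbols listed in each library, and each had a single entry with an accepted status in all 4 libraries. All groups came from the amygdala of mice of the genotype NpyCre/+;TRAPlox/lox, in which Cre made under the control of Npy, the neuropeptide Y gene, acts on a lox-flanked allele for translating ribosome affinity purification (TRAP). The 2 groups were the immunoprecipitate (IP), which is RNA pulled down with tagged ribosomes, and the input, which is total RNA of the same tissue. Each group had 2 libraries, with RNA of 3 mice pooled in each, and no group lacked Cre or the TRAP allele. The sources used here state no age, sex or treatment of the mice.

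GABA is formed from glutamate by glutamate decarboxylase, which exists as the products of Gad1 and Gad2 and needs pyridoxal phosphate as a cofactor. The vesicular transporter encoded by Slc32a1 exchanges protons for GABA or glycine, so that loading runs on the vesicular proton pump. After release, GABA is cleared by plasma membrane transporters of the Slc6 family in neurons and glia. GABA transaminase (Abat) and succinic semialdehyde dehydrogenase (Aldh5a1) then turn it in mitochondria into succinate, which enters the tricarboxylic acid cycle. Many amygdala neurons that make neuropeptide Y are GABAergic.

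Expression was deposited as FPKM, fragments scaled to transcript length and to mapped fragments, so that levels can be set side by side between genes. Changes were tested with limma on log2(FPKM + 1) over 12417 genes, with p-values adjusted over all of them by Benjamini-Hochberg, and log2 changes are IP minus input on that scale. The sum of FPKM was 423985 and 419349 in the IP libraries, against 334759 and 335119 in the input libraries. The number of reads is not given in the files. Npy itself averaged 1204 ± 51.7 FPKM in IP, against 102.3 ± 4.38 FPKM in input (SD, n = 2 libraries each). Both GABAergic and glutamatergic neuron genes were measured in input, at 24.8 ± 0.16 FPKM for Slc32a1 and 294 ± 11.3 FPKM for Slc17a7, a vesicular glutamate transporter gene.

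The 3 genes of synthesis and vesicle loading were between 3.36-fold and 4.87-fold higher in IP than in input. The 2 genes of breakdown were 1.98-fold and 1.87-fold higher in IP. The 2 uptake genes of the set went the other way, with Slc6a11 3.27-fold and Slc6a13 10.9-fold higher in input. At an adjusted p threshold of 0.05, 5 of the 7 genes were called higher in IP and 2 lower, against 37.0% of all genes tested that were called higher and 33.9% that were called lower. Both IP values lay outside the range of the input values for each of the 7, as they did for 86.4% of all genes tested. Slc6a13 reached the minimum of 1 FPKM in the input libraries alone, so that its presence among the genes tested already required a difference. These 2 uptake genes do not stand for GABA uptake as a whole.

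**Figure D1:**
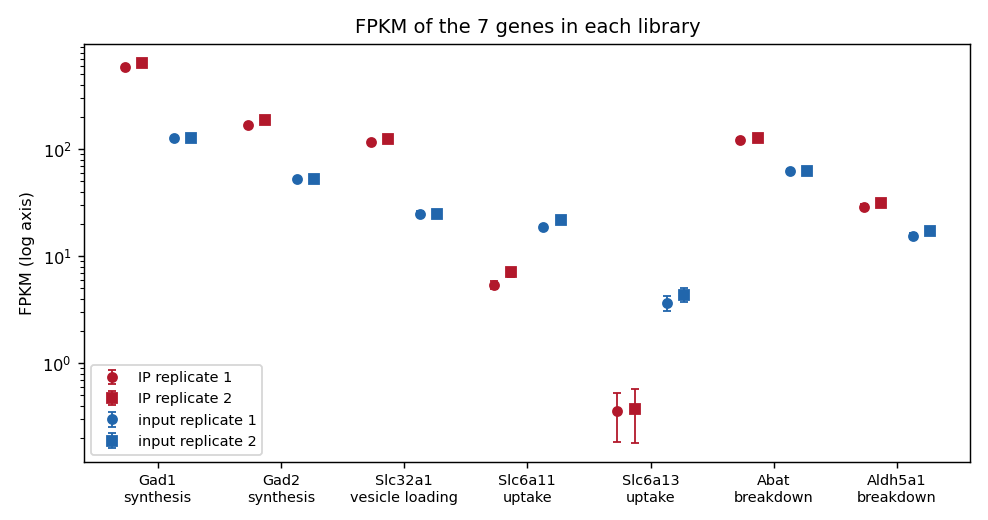
FPKM of the 7 genes on a log axis, with each library as a point (IP in red, input in blue; circles, replicate 1; squares, replicate 2) and the confidence limits listed by the authors as bars. Gad1, Gad2, Slc32a1, Abat and Aldh5a1 lie higher in both IP libraries, whereas Slc6a11 and Slc6a13 lie lower, and the bars of IP and input do not meet for any of the 7 genes.

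Gad1, which encodes the decarboxylase isoform found throughout the GABAergic neuron, stood at 589 and 633 FPKM in the IP libraries, against 127.8 and 127.6 FPKM in the input libraries. The input libraries were almost equal, and the lower IP library was far above both. Its means were 611 ± 31.1 FPKM in IP and 127.7 ± 0.18 FPKM in input (SD, n = 2 each), a log2 change of 2.25 (SE 0.05; limma, adjusted p = 6.08e-06). Of the genes tested, 0.23% changed upward by at least as much. By mean FPKM, Gad1 ranked 63rd of the 12417 genes in IP and 416th in input. The gene lies on chromosome 2 from 70562164 to 70602012 on the plus strand (mm10), and its longest coding transcript in GENCODE has 17 exons and 3355 bases. The antisense gene Gad1os overlaps it and was listed at 0.421 and 0.794 FPKM in IP and at 0.205 and 0.397 FPKM in input. Whether reads were counted by strand is not stated, so that reads of a gene and its antisense partner cannot be told apart.

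Gad2 encodes the isoform that is anchored to synaptic vesicle membranes at nerve endings. It was measured at 167 and 188 FPKM in the IP libraries, against 52.5 and 53.1 FPKM in the input libraries. The groups did not overlap, and the IP libraries differed more from each other than the input libraries did. The means were 178 ± 15.1 FPKM in IP and 52.8 ± 0.47 FPKM in input, a log2 change of 1.73 (SE 0.07; limma, adjusted p = 1.86e-05), and 0.51% of the genes tested changed upward by at least as much. Gad2 is on chromosome 2 from 22622327 to 22693877, plus strand, with 16 exons in its GENCODE coding transcript of 5744 bases.

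Slc32a1, the gene of the vesicular GABA and glycine transporter, had 118 and 124 FPKM in the IP libraries, against 24.9 and 24.7 FPKM in the input libraries. The groups lay far apart. Its mean was 120.8 ± 4.19 FPKM in IP and 24.8 ± 0.16 FPKM in input, 4.87-fold higher in IP (log2 change 2.24, SE 0.05; limma, adjusted p = 5.59e-06). Slc32a1 is a short gene of 2 exons on chromosome 2 from 158610758 to 158615747, plus strand, with a coding transcript of 2797 bases. The antisense gene Gm14205 overlaps it in GENCODE and was not listed in the files, so that reads of it cannot be told apart from those of Slc32a1.

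Gad1, Gad2 and Slc32a1 rose together, and their RefSeq promoters (GRCm38.p6, the build of mm10; 250 bases before to 50 after the start, 5′ to 3′, plus strand) are shown to let their sequences be compared. Capitals mark CANNTG, the E-box bound by basic helix-loop-helix factors, and GGGCGG, the GC box, each searched on both strands.
Gad1, chr2:70561879-70562178: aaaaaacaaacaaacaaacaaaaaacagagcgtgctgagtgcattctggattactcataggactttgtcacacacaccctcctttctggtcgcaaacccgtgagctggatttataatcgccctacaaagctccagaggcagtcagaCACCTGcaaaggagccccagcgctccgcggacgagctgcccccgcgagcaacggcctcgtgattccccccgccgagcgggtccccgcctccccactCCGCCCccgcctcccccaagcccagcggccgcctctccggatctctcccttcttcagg
Gad2, chr2:22622077-22622376: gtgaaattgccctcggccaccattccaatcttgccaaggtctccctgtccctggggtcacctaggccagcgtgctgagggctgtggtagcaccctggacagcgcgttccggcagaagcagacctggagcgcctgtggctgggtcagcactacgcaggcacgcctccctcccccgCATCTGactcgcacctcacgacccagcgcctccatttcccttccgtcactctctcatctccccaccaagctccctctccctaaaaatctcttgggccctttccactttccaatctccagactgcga
Slc32a1, chr2:158610508-158610807: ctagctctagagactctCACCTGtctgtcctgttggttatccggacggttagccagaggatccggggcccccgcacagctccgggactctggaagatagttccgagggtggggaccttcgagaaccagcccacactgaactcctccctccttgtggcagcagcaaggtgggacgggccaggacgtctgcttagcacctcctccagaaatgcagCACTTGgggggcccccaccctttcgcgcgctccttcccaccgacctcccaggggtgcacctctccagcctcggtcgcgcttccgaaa
Each of these promoters held at least 1 E-box, as did 72.3% of the 32851 promoters of the same length in the RefSeq table, and Slc32a1 held 2, as did at least that number in 39.6%. The GC box was found in the Gad1 promoter and in 35.7% of all promoters, and not in the Gad2 or Slc32a1 window. TAATTA, a core bound by many homeodomain factors, was in none of the 3 windows and in 5.29% of all promoters. TATAAA was found in the Gad1 window alone, on the minus strand, and in 13.6% of all promoters, while CCAAT was in the Gad2 window and in 37.4% of all. GC content was 60.0% for Gad1, 61.3% for Gad2 and 63.3% for Slc32a1, against a median of 52.7%.

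Slc6a11 encodes a GABA transporter that is found mainly on astrocytes. Its level was 5.40 and 7.06 FPKM in the IP libraries, against 18.8 and 21.9 FPKM in the input libraries. The groups lay apart, although the spread relative to the mean was wider than for the synthesis genes, with 6.23 ± 1.17 FPKM in IP and 20.4 ± 2.17 FPKM in input (SD, n = 2 each). The log2 change was -1.57 (SE 0.13; limma, adjusted p = 0.000121), and 2.25% of the genes tested changed downward by at least as much. Slc6a11 is on chromosome 6 from 114131241 to 114249886, plus strand, with 14 exons.

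Slc6a13 encodes a GABA and taurine transporter known in the brain from the meninges and blood vessels. It was listed at 0.356 and 0.378 FPKM in the IP libraries, against 3.65 and 4.35 FPKM in the input libraries. The IP values were close to the lower end of what the depth can measure, with listed limits of 0.183 to 0.529 FPKM in IP replicate 1. If those limits span 2 SD of a read count, about 17 and 15 fragments stood behind the IP values, against 153 and 184 behind the input values. Its mean FPKM was 10.9-fold higher in input, which on the log2(FPKM + 1) scale is a change of -1.87 (SE 0.10; limma, adjusted p = 3.91e-05), understated by the added 1. The change was -3.13 with a pseudocount of 0.1 and -0.745 with a pseudocount of 5, all past the threshold. The gene lies on chromosome 6 from 121300296 to 121337718, plus strand, with 15 exons.

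The promoters of the 2 genes that fell are shown beside those that rose, with the same capitals and source.
Slc6a11, chr6:114130991-114131290: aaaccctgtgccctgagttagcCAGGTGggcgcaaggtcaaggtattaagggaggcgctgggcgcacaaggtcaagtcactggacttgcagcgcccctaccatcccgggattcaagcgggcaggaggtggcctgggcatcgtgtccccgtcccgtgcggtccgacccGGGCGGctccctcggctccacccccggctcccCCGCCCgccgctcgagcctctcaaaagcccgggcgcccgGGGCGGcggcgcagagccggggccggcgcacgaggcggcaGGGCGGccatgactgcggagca
Slc6a13, chr6:121300038-121300337: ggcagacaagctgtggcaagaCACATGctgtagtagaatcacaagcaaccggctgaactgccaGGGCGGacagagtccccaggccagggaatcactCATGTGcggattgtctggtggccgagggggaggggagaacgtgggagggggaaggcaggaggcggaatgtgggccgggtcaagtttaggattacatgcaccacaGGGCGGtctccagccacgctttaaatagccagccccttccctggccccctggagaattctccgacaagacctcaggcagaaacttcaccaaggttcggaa
Slc6a11 held 4 GC boxes, a number reached by 5.49% of all promoters, and had a GC content of 72.3%. Slc6a13 held 2 GC boxes and 2 E-boxes in this promoter, the first of 3 that RefSeq lists for it. At least 2 GC boxes were found in 19.5% of all promoters, and at least 2 E-boxes in 39.6%. Promoters 2 and 3 of Slc6a13, not shown, each held 0 GC boxes, with 1 and 0 E-boxes. Of the 7 genes, 6 had a promoter in the table.

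Markers of the cell types in which the 2 uptake genes are known were lower in IP as well. Of 14 astrocyte markers tested, 13 were lower, 0 higher and 1 (Gfap) not past the threshold. Over all genes tested, 33.9% were lower and 37.0% higher. The 14 markers had a median log2 change of -2.05, against 0.03 over all genes tested. Their summed level was 96.5 and 121 FPKM in the IP libraries, against 339 and 371 FPKM in the input libraries, 3.27-fold higher in input. Slc1a3 and Gja1, which encode a glutamate transporter and a gap junction protein of astrocytes, changed by -2.68 and -2.56, and the amino acid transporter gene Slc7a10 had 0 FPKM in each IP library, against 7.21 and 6.68 FPKM in input. Slc7a10, 1 of the 13 lower, thus passed the filter through input alone and had to differ. Of 8 meningeal fibroblast markers tested, 5 were under 1 FPKM in both IP libraries and passed the filter through input alone, so that they had to differ. The other 3 were lower in IP too. The summed level over the 10 listed was 62.7 and 92.5 FPKM in IP, against 847 and 1031 FPKM in input, most of it from the prostaglandin synthase gene Ptgds. Without Ptgds the sums were 3.72 and 4.83 FPKM in IP, against 51.5 and 59.3 FPKM in input. Igf2 and Ptgds changed by -3.27 and -3.59, and none of the 10 was at 0 in both IP libraries. The part of these cells in the values of Slc6a11 and Slc6a13 was not tested. IP and input came from the same tissue, and the amount of RNA of other cells carried into IP was not measured.

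Abat encodes GABA transaminase, the mitochondrial enzyme that begins GABA breakdown in neurons and glia. It was at 121 and 126 FPKM in the IP libraries, against 62.8 and 62.4 FPKM in the input libraries. The values within each group were close, at 123.8 ± 3.72 FPKM in IP and 62.6 ± 0.33 FPKM in input, and the log2 change was 0.97 (SE 0.05; limma, adjusted p = 3e-05). Of the genes tested, 3.90% changed upward by at least as much, so that this rise was less uncommon than those of Gad1 and Slc32a1. Abat is on chromosome 16 from 8513429 to 8621567, plus strand, with 5 coding transcripts in GENCODE.

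Aldh5a1 encodes succinic semialdehyde dehydrogenase, which completes the pathway. It had 29.0 and 31.5 FPKM in the IP libraries, against 15.4 and 17.0 FPKM in the input libraries. Its log2 change was 0.86 (SE 0.07; limma, adjusted p = 0.000142), with means of 30.3 ± 1.74 FPKM in IP and 16.2 ± 1.16 FPKM in input, and 5.69% of the genes tested changed upward by at least as much. Aldh5a1 is on chromosome 13 from 24907579 to 24937661, minus strand, with 10 exons. The antisense gene 4932702P03Rik and the bidirectional promoter transcript 9330162012Rik, which overlap it on the other strand, were listed at 0 in all 4 libraries.

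**Figure D2:**
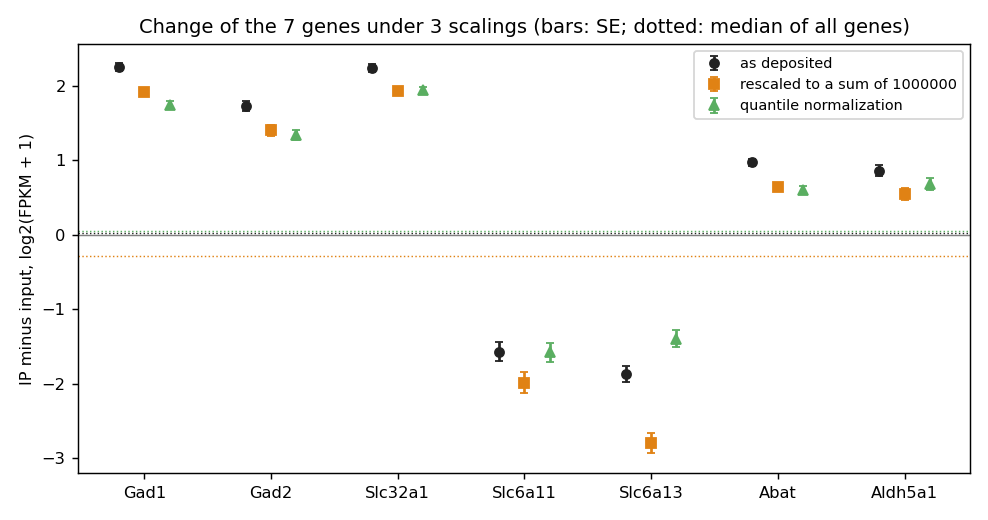
Log2 change of each gene, IP minus input on log2(FPKM + 1), with its SE as bars, for values as deposited, rescaled to a common sum and quantile normalized; dotted lines give the median change of all genes under each. The 5 genes of synthesis, loading and breakdown stay above 0 and the 2 uptake genes below 0 under all 3 scalings, and Slc6a13 moves most, between -1.40 and -2.80.

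Scaling moved the sizes of these changes and not their direction. Rescaling each library to the same sum moved the median change of all genes to -0.29, against 0.03 as deposited, with 2227 genes called higher and 6685 lower in place of 4597 and 4206, and Gad1, Gad2 and Slc32a1 were then at 1.92, 1.40 and 1.93. Abat and Aldh5a1 were at 0.64 and 0.55 after rescaling, and at 0.61 and 0.69 with quantile normalization. All 7 kept their calls under both.

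The order of levels changed between the groups at its middle. In IP the order by mean FPKM was Gad1, Gad2, Abat, Slc32a1, Aldh5a1, Slc6a11 and Slc6a13, and only Abat and Slc32a1 overlapped between neighbours. In input it was Gad1, Abat, Gad2, Slc32a1, Slc6a11, Aldh5a1 and Slc6a13, with no overlap between neighbours. The summed level of the 7 genes was 1030 and 1111 FPKM in the IP libraries, against 306 and 311 FPKM in the input libraries. Each of the 7 was higher in IP replicate 2 than in IP replicate 1, and the share of all genes with that order was not counted. Summed markers of other cell types were higher in IP replicate 2 as well, among them astrocytes (96.5 and 121 FPKM in IP replicates 1 and 2) and meningeal fibroblasts (62.7 and 92.5 FPKM). Ependymal and choroid plexus (13.2 and 4.42 FPKM) and erythrocyte (8.33 and 7.02 FPKM) sums were lower in IP replicate 2. Over 12 glutamatergic neuron markers the sum was 1557 FPKM in IP replicate 1 and 993 FPKM in IP replicate 2, against 1976 and 1892 FPKM in the input libraries. Of the 12, 9 were lower in IP and 0 higher, against 33.9% and 37.0% of all genes tested. Slc17a7 was at 173 and 118 FPKM in the IP libraries, against 286 and 302 FPKM in the input libraries (log2 change -1.04). Nrgn, a postsynaptic calmodulin-binding protein gene that was not past the threshold, gave most of the gap between the IP sums, at 1100 FPKM in IP replicate 1 and 646 FPKM in IP replicate 2. Without it the sums were 457 and 347 FPKM in IP, against 804 and 835 FPKM in input, and 10 of the 12 genes were higher in IP replicate 1 than in IP replicate 2. Emx2, 1 of the 9 lower in IP, passed the filter through input alone and had to differ. The part of these 12 genes in the difference between the IP libraries was not tested.

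Ratios between genes of the same library are free of any scaling of that library, and 5 were computed. The Gad1 to Gad2 ratio was 3.53 and 3.36 in the IP libraries, against 2.44 and 2.4 in the input libraries, a log2 difference of 0.51. The groups did not overlap, with relatively more Gad1 in IP. The Slc32a1 to Gad1 ratio was 0.2 and 0.195 in the IP libraries, against 0.195 and 0.194 in the input libraries, a log2 difference of 0.02, which was -0.012 when 1 was added to both values. The Abat to Gad1 ratio was 0.206 and 0.2 in IP, against 0.491 and 0.489 in input, a log2 difference of -1.27, with relatively less Abat in IP. The Aldh5a1 to Abat ratio, at 0.24 and 0.249 in IP and at 0.245 and 0.273 in input, overlapped between the groups, with a log2 difference of -0.08, or -0.111 and no overlap (exact permutation p = 0.33) when 1 was added to both values. The Slc6a11 to Slc6a13 ratio was 15.2 and 18.7 in IP, against 5.16 and 5.03 in input, a log2 difference of 1.73, which was 0.3 when 1 was added to both values. The exact two-sided permutation test gave p = 0.667 for Aldh5a1 over Abat and 0.33 for the other ratios, and 0.33 is the smallest p that 2 libraries against 2 allow.

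**Figure D3:**
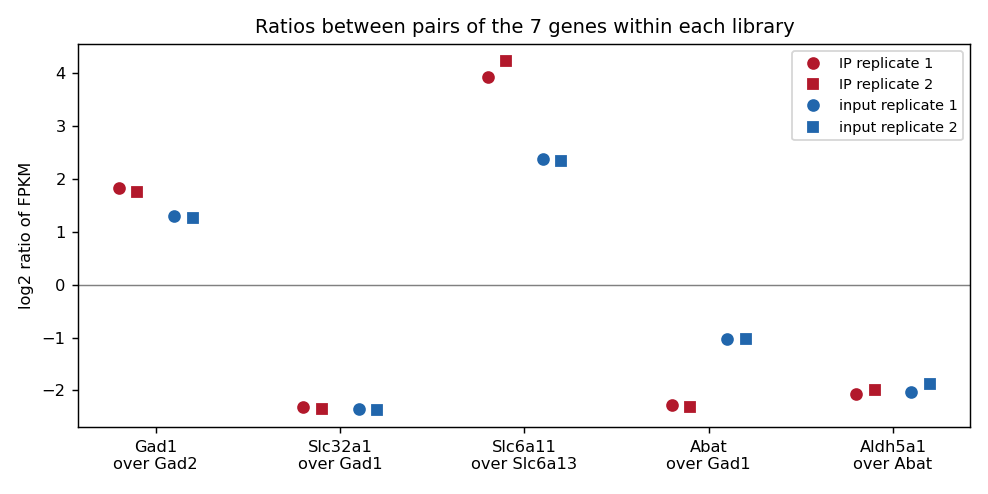
Log2 ratio of FPKM between 5 pairs of the genes in each library (IP in red, input in blue). Gad1 over Gad2 and Slc6a11 over Slc6a13 lie higher in IP, Abat over Gad1 lies lower, and Slc32a1 over Gad1 lies between -2.37 and -2.32 in all 4 libraries.

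Genes that supply glutamate and glutamine were split. Of 14 tested, 5 were higher, 6 lower and 3 not past the threshold (median -0.13), and after rescaling 5 were higher and 9 lower. Of all genes tested, 37.0% were higher and 33.9% lower as deposited (median 0.03). After rescaling, 2227 and 6685 of the 12417 were. Slc38a1, a neuronal glutamine transporter gene, was at 35.1 and 38.1 FPKM in the IP libraries, against 17.0 and 17.9 FPKM in the input libraries (log2 change 1.03), and the glutaminase gene Gls2 rose by 1.02. The transaminase genes Got1 and Got2 rose by 0.79 and 0.65. The astrocytic side of the cycle was lower, with Glul, the glutamine synthetase gene, at 72.7 and 84.6 FPKM in IP, against 209 and 242 FPKM in input (log2 change -1.51), and the glutamine carrier gene Slc38a3 at -2.20. Slc1a2 and Slc1a3, at -2.43 and -2.68, belong to the astrocyte markers too.

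Of 9 genes for the decarboxylase cofactor or for partners on the vesicle, 6 were higher, 2 lower and 1 not past the threshold (median 0.64). The shares over all genes tested were 37.0% higher and 33.9% lower (median 0.03). Pdxk, the pyridoxal kinase gene of cofactor supply, was at 78.3 and 83.3 FPKM in the IP libraries, against 43.5 and 46.8 FPKM in the input libraries (log2 change 0.83). Pdxp, whose product removes the phosphate again, rose by 0.92. The vesicle protein gene Sv2a rose by 1.03 and its paralog Sv2b changed by -1.13. The palmitoyltransferase gene Zdhhc17 changed by -0.19 (limma, adjusted p = 0.0261). Leaving out any 1 of the 4 libraries ended that call (changes of -0.204 to -0.168), as did size factors (-0.131; limma, adjusted p = 0.0821). With quantile normalization 4 of the 9 were higher and 2 lower, against 4378 and 3753 of all 12417 genes tested.

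Most subunits of the vesicular proton pump, which powers the Slc32a1 transporter and acidifies other organelles as well, were higher in IP as deposited. Of 17 tested, 14 were higher, 1 lower and 2 not past the threshold, with a median of 0.55, and after rescaling 12 were higher and 2 lower, with a median of 0.21. Of all genes tested, 37.0% were higher as deposited (median 0.03), and 2227 of 12417 after rescaling (median -0.29). With quantile normalization the pump counts were 8 and 3 (median 0.16), against 4378 and 3753 of all 12417 genes (median 0.05). Atp6v1f rose by 1.16, and Atp6v1g2 by 0.93, with 913 and 942 FPKM in the IP libraries, against 483 and 490 FPKM in the input libraries. Atp6v0e changed by -0.75 and its paralog Atp6v0e2 rose by 0.92. The median of the pump lay below the changes of Gad1, Gad2 and Slc32a1.

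Around the breakdown route, 5 of 10 genes tested were higher, 4 lower and 1 not past the threshold (median 0.12). Over all genes tested, 37.0% were higher and 33.9% lower (median 0.03). Suclg1 and Sucla2, subunits of succinyl-CoA ligase, rose by 0.89 and 0.76, and Suclg2, the alternative subunit, which passed the filter through input alone, changed by -0.87. Akr7a5, a reductase of succinic semialdehyde, rose by 0.72. Maob, whose product takes part in making GABA from putrescine in astrocytes, was at 1.98 and 1.71 FPKM in the IP libraries, against 7.73 and 6.33 FPKM in the input libraries (log2 change -1.50), and Adhfe1 changed by -1.17.

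Among related transporter genes, Slc6a6, the taurine transporter gene, changed by -1.17, at 7.42 and 8.64 FPKM in the IP libraries, against 19.5 and 19.0 FPKM in the input libraries. Slc6a8, the creatine transporter gene, has no settled direction. It differed by 0.15 as deposited (limma, adjusted p = 0.0603), by -0.18 after rescaling (adjusted p = 0.0275), by -0.03 with quantile normalization (adjusted p = 0.649) and by 0.2 with size factors (adjusted p = 0.0169). Slc6a12, which encodes a betaine and GABA transporter, did not reach the filter, with 0.0864 and 0.104 FPKM in IP, against 0.551 and 0.665 FPKM in input. The glycine transporter gene Slc6a5 was listed at 0 in all 4 libraries and Slc6a9 changed by -0.40. Slc17a6, a second vesicular glutamate transporter gene, was at 1.48 and 2.58 FPKM in the IP libraries, against 4.60 and 5.74 FPKM in the input libraries (log2 change -1.04).

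**Figure D4:**
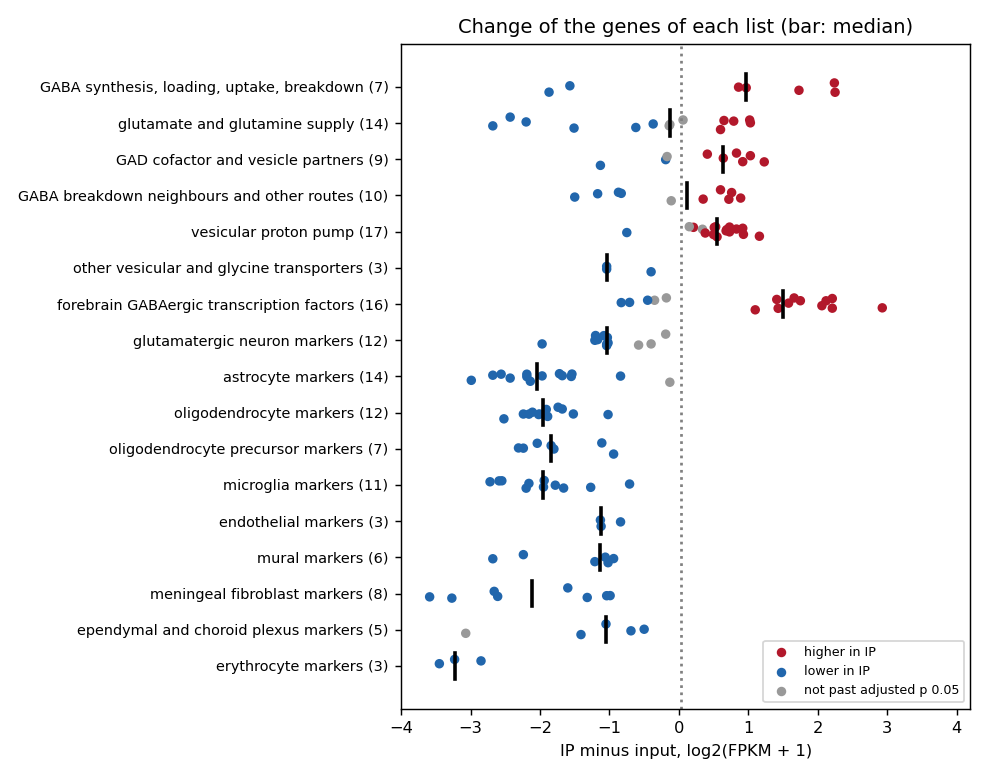
Log2 change, IP minus input on log2(FPKM + 1), of every tested gene of each list except the related Slc6 transporters, with red for higher in IP, blue for lower in IP and grey for not past the threshold; numbers in brackets are genes tested, bars are medians and the dotted line is the median of all genes (0.03). The 7 genes spread from -1.87 to 2.25, with the proton pump list at a median of 0.55 and all glial, vascular and meningeal lists at medians of -1.05 or lower.

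In values as deposited, 33.9% of all genes tested were lower in IP. Markers of the remaining cell types were lower for 12 of 12 oligodendrocyte, 7 of 7 precursor, 11 of 11 microglial and 3 of 3 endothelial genes tested. The same held for 6 of 6 mural, 3 of 3 erythrocyte, and 4 of 5 ependymal and choroid plexus genes. Many of these passed the filter through input alone and had to differ: 1 oligodendrocyte, 4 precursor, 10 microglial, 3 endothelial, 4 mural and 3 ependymal and choroid plexus genes. With quantile normalization 6 of the 7 precursor, 2 of the 3 endothelial and 5 of the 6 mural genes were lower, against 3753 of all 12417 genes tested. In that setting 2 of the 5 ependymal and choroid plexus genes were lower, and the call of Kl was lost. It was also lost with no filter on FPKM (limma, adjusted p = 0.0568). The same held without IP replicate 1 (change of -0.6) or input replicate 1 (-0.4), against -0.69 as deposited. The choroid plexus gene Ttr, which did not pass, differed between pools, at 10.4 and 1.31 FPKM in IP replicates 1 and 2, against 172 and 9.66 FPKM in input replicates 1 and 2.

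The genes whose 4 values moved most like those of each member, by Euclidean distance of log2(FPKM + 1) centred on each gene's mean over 4 libraries and 11756 genes, were as follows. For Gad1 and Slc32a1 alike they included Taf1d and Dlx1, at distances of 0.0344 and 0.106 from Gad1, although Taf1d was listed at 0 in both input libraries. Dlx1, a homeobox gene, was at 39.6 and 41.3 FPKM in IP, against 8.37 and 7.52 FPKM in input. For Gad2 they were Kcnmb2, Nap1l5 and Lypd6, with Nap1l5 at 723 and 816 FPKM in IP, against 242 and 233 FPKM in input. Rhog, Il18 and Efemp1 were closest to Slc6a11, and Sox8, Igfn1 and Cacna1e to Slc6a13. Anapc13, Mrpl14 and Gng3 were closest to Abat, and Dnm3, Ube2s and Dand5 to Aldh5a1. With 4 libraries in 2 groups, this likeness reflects mostly the size of the change.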

How the data were processed

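The authors aligned reads of 100 bases with TopHat to mm10, using the iGenomes UCSC annotation, and computed FPKM with Cufflinks for each library, per the series' design text and the submitters' processing notes. The deposited files list 24490 entries with FPKM, upper and lower confidence bounds and a status column, per the file headers, and 200 ng of RNA was used per library. Replicate numbers came from the titles, although the source description of IP replicate 2 gives replicate 1. The design text sets each IP against its corresponding input, and same-numbered deviations from the group means correlated at 0.163. No values at or above 5 FPKM were identical between replicates.

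From these values, 8 entries with a failed status and 1279 with small RNA names were left out, and of several entries of a symbol the highest was kept. Genes with at least 1 FPKM in at least 2 libraries were tested with lmFit and eBayes with trend on log2(FPKM + 1) in limma 3.58.1 (R 4.3.3), two-sided, unblocked, with an adjusted p threshold of 0.05, a procedure tested on simulated data. Those data had independent noise in each library and no scaling difference between the groups, so they tested neither pairing nor scaling. The p-values rest on the spread between 2 pools per group (2 residual degrees of freedom), moderated by the spread over all genes tested. Without a block they treat an IP library and its corresponding input as independent. Fold values are ratios of mean FPKM. Gene structures came from GENCODE M21 and promoters from RefSeq. Exact tests were run in scipy 1.17.1.

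The members and lists were chosen with earlier results of these data known. Beside the members, the text names up to 4 genes past the threshold in each direction of each pathway list, up to 3 of each marker list and the 3 genes most like each member, and a few others (Gfap, Ttr, Slc6a5, Slc6a8 and Slc6a12 among them), chosen after their values were seen. Some genes covered by the rule are not reported here, and 1 of them enters no list count.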

Additional observations from a re-analysis of the deposited data

How the results depend on the processing

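Each of the 7 genes kept its direction and its call in all 104 refits, 15 for each gene and 14 for Slc6a13, which is not tested at a minimum of 5 FPKM, so that 1 rather than 2 of the 7 were then lower in IP. With 1 library left out, the changes ran from 2.197 to 2.301 (Gad1), 1.642 to 1.815 (Gad2), 2.202 to 2.272 (Slc32a1), -1.734 to -1.402 (Slc6a11), -1.97 to -1.766 (Slc6a13), 0.942 to 1.002 (Abat) and 0.793 to 0.93 (Aldh5a1), with the lone library of a group assumed to vary like the other group. With the replicate number as a block, 4746 genes were higher and 4370 lower, against 4597 and 4206 without it, and no call of the 7 genes changed. After rescaling, 2227 were higher and 6685 lower, and with a minimum of 5 FPKM 2437 were lower, with fewer genes tested (9011). The log2 difference of the Slc32a1 to Gad1 ratio was -0.012 with 1 added to both values, against 0.02. Of 1157 refits of the 78 other genes that the naming rule takes, 10 lost the call, for Zdhhc17, Slco1a4 and Kl, and 0 changed direction. Slc6a8, named outside that rule, was -0.18 after rescaling, against 0.15. Depth limits Slc6a13 in IP most.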

Other observations

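Transcription factor genes of forebrain GABAergic neurons were mostly higher in IP, and those named here were chosen after their values were seen. Of 16 tested, 11 were higher in IP, 3 lower and 2 not past the threshold, with a median log2 change of 1.5, against 0.03 over all genes tested. Of all genes tested, 37.0% were higher and 33.9% lower. The counts of the 16 were 11 and 5 after rescaling, against 2227 and 6685 of all 12417 genes tested. Under quantile normalization they were 11 and 2, against 4378 and 3753. Lhx6 and Nkx2-1, known from interneurons of the medial ganglionic eminence, changed by 2.93 and 1.66. Nkx2-1, 1 of the 11 higher, was at 0.563 and 0.542 FPKM in the input libraries. It passed the filter through IP alone and had to differ. Lhx6 was at 99.0 and 105 FPKM in the IP libraries, against 12.9 and 12.2 FPKM in the input libraries. Meis2, known from striatal-type projection neurons, changed by -0.83 (limma, adjusted p = 0.000302). Nr2f2, known from interneurons of the caudal ganglionic eminence, differed by -0.45, and leaving out input replicate 1 (adjusted p = 0.129), leaving out input replicate 2 (adjusted p = 0.166) or using no filter (adjusted p = 0.0748) each ended its call. Isl1, also known from striatal-type neurons, changed by -0.71, passed the filter through input alone, so that it had to differ, and lost its call with quantile normalization (-0.13, adjusted p = 0.379). It was at 0.33 and 0.42 FPKM in IP, against 1.12 and 1.41 FPKM in input.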
